A study of Mus musculus with 18 samples.

Results

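The miR-199 and miR-214 miRNAs are the mature arms made from 4 mouse hairpins, Mir199a-1, Mir199a-2, Mir199b and Mir214. The members were chosen by the names of their hairpins, by a rule that uses no measured value, and were mmu-miR-199a-5p, mmu-miR-199a-3p, mmu-miR-199b-5p, mmu-miR-199b-3p, mmu-miR-214-3p and mmu-miR-214-5p, written without the species prefix from here on. They are 6 of the 1907 mature miRNA names in the counts table, of which 1232 had a read in any library. Small RNAs of NIH/3T3, an immortalized mouse embryonic fibroblast line, were sequenced as input and after immunoprecipitation (IP) with a monoclonal antibody against pseudouridine (Ψ), an isomer of uridine. Cells were wild type (WT) or Pus1 KnockDown, taken on day 3 (KD3) or day 6 (KD6) of the knockdown. Pus1 encodes a Ψ synthase. Each of the 3 conditions had 3 input and 3 IP libraries, named A, B and C, which gave 18 libraries. No label ties these replicates to separate cultures, so the tests measure the spread between these libraries, which may be technical. All groups were the same cell line. The paper gives a culture medium for the line and none specific to the knockdown. The agent used for the knockdown is not given in the sources used here. The comparison is with wild-type cells, and the Pus1 transcript itself was not analysed here.

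A miRNA hairpin is cut by Drosha and Dicer into a short duplex, and the 5p or the 3p arm is then loaded into an Argonaute protein, which it guides to messenger RNAs through its seed, bases 2 to 8. Mir199a-2 and Mir214 are processed from the noncoding transcript Dnm3os, which runs antisense to Dnm3, is switched on by Twist1 in mesenchymal precursors and is needed for normal skeletal development. The family is characteristic of fibroblasts and other mesenchymal cells and is studied in fibrosis and in heart muscle. Known targets include Hif1a and Cav1 for miR-199a-5p, Mtor and Met for miR-199a-3p, and Ezh2 for miR-214-3p.

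Of the 6 members, 5 matched a mature sequence in the RefSeq table of the build GRCm38.p6, and miR-199b-5p is given by name. They are shown because the arms behaved differently in the IP, with the seed in capitals.
miR-199a-5p: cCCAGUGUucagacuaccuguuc
miR-199a-3p and miR-199b-3p: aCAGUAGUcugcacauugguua
miR-214-3p: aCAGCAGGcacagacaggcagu
miR-214-5p: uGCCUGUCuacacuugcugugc
The 3p arms of miR-199a and miR-199b are identical, so a read of this sequence cannot be assigned to either, and the 6 names stand for 5 distinguishable sequences. The matched sequences that differ also differ in their seeds. In the sequence table, 1 other miRNA of the counts table carried a member's seed, miR-761 with that of miR-214-3p, and it had 0 reads in every library. It is named although its values were seen first. The content of uracil, the base from which Ψ is made, was 30.4% in miR-199a-5p, 31.8% in the shared miR-199-3p and 36.4% in miR-214-5p. miR-214-3p held 1 uracil, the last of its 22 bases, and its content of 4.55% was below that of 98.5% of the 475 tested miRNAs with a sequence.

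The hairpins of the Dnm3os cluster are shown with both mature arms in capitals, to place the arms that are compared within a library.
Mir199a-2: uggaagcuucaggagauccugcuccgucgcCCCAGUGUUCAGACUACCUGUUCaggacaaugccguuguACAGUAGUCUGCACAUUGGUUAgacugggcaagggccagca
Mir214: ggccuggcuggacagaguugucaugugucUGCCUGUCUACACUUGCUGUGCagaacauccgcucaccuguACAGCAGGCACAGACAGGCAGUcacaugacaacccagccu
In GRCm38 coordinates Mir199a-2 lies at chr1:162217814-162217923 and Mir214 at chr1:162223368-162223477, both on the plus strand, with 5444 bases between them. The GENCODE annotation places both in an exon of Dnm3os and, on the opposite strand, in an intron of Dnm3. Mir199b lies at chr2:32318460-32318569, plus strand, antisense within an intron of Dnm1. Mir199a-1 lies at chr9:21496495-21496564, minus strand, antisense within an intron of Dnm2. The mature arms of Mir199a-1 and Mir199a-2 are the same, and the deposited counts divide their reads evenly, 50.0% of miR-199a-5p to each hairpin. The division of miR-199-3p into 2 parts miR-199a-3p and 1 part miR-199b-3p follows from the number of loci and carries no measurement of either hairpin.

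Depth ranged from 3989031 to 15099781 mapped reads per library, except for replicate A of the KD6 input with 241109, and the share of mapped reads outside miRNA rows moved with both the IP and the knockdown. In inputs it was 5.47% to 5.86% in WT, 9.39% to 9.94% in KD3 and 6.88% to 9.96% in KD6. In IP libraries it was 14.8% to 18.6% in WT, 27.9% to 38.2% in KD3 and 23.2% to 30.3% in KD6. Its part in the results was not tested. Reads are not independent molecules, so depth sets counting error only. Markers of blood, epithelial and endothelial cells were at or near 0, and those of liver, nervous system and muscle in part above it. The blood list of 5 miRNAs summed to 0 to 1.67 CPM over the 18 libraries (CPM, counts per 1000000 of the scaled library size), the epithelial list of 7 to 0 to 15.5 CPM and the endothelial miR-126a-3p to 0 to 2.18 CPM, with miR-142a-3p, miR-141-3p and miR-203-3p at 0 reads in every input. The liver miRNA miR-122-5p reached 21.6 to 371 CPM. In the nervous system list, miR-9-5p carried 2457 to 3337 CPM in the inputs while miR-124-3p did not exceed 0.623 CPM there. In the muscle list, miR-206-3p carried 83.3 to 212 CPM in the inputs and miR-133a-3p had 0 reads there. A list of 17 other arms known to be abundant in fibroblasts and other mesenchymal cells summed to 128886 to 699854 CPM.

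The first question was how abundant the members are in the fibroblasts. In WT input, the 6 members together held 4.39% ± 0.21 of miRNA reads (SD, n = 3). miR-199a-5p was 8th of the 1907 names by mean level, miR-199a-3p 10th, miR-199b-3p 21st, miR-199b-5p 33rd, miR-214-3p 44th and miR-214-5p 89th. The 3p names of miR-199 divide the reads of a shared sequence, so their ranks are not levels of separate miRNAs. The levels were 16932 ± 2126 CPM for miR-199a-5p and 16304 ± 556 CPM for miR-199-3p, the summed counts of the miR-199a-3p and miR-199b-3p names, a difference within the spread of the replicates. They were followed by miR-199b-5p with 2697 ± 417 CPM, miR-214-3p with 2061 ± 43.6 CPM and miR-214-5p with 446 ± 44.3 CPM (SD, n = 3), and the replicates of these neighbours did not overlap. In WT IP, the share of the 6 members was 1.34% ± 0.08 of miRNA reads, and the order changed: miR-199-3p led with 11119.5 ± 796 CPM, ahead of miR-199a-5p with 1237 ± 254 CPM, miR-214-3p with 459 ± 85.8 CPM, miR-199b-5p with 107 ± 25.6 CPM and miR-214-5p with 50.0 ± 12.7 CPM. The arms are of nearly the same length, 22 or 23 bases for the matched ones, so no scaling by length was applied, and levels of different arms also carry their own cloning efficiency, which was not measured. In bulk input libraries a lower level can mean fewer molecules per cell or fewer cells carrying them, and these cannot be told apart.

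**Figure D1:**
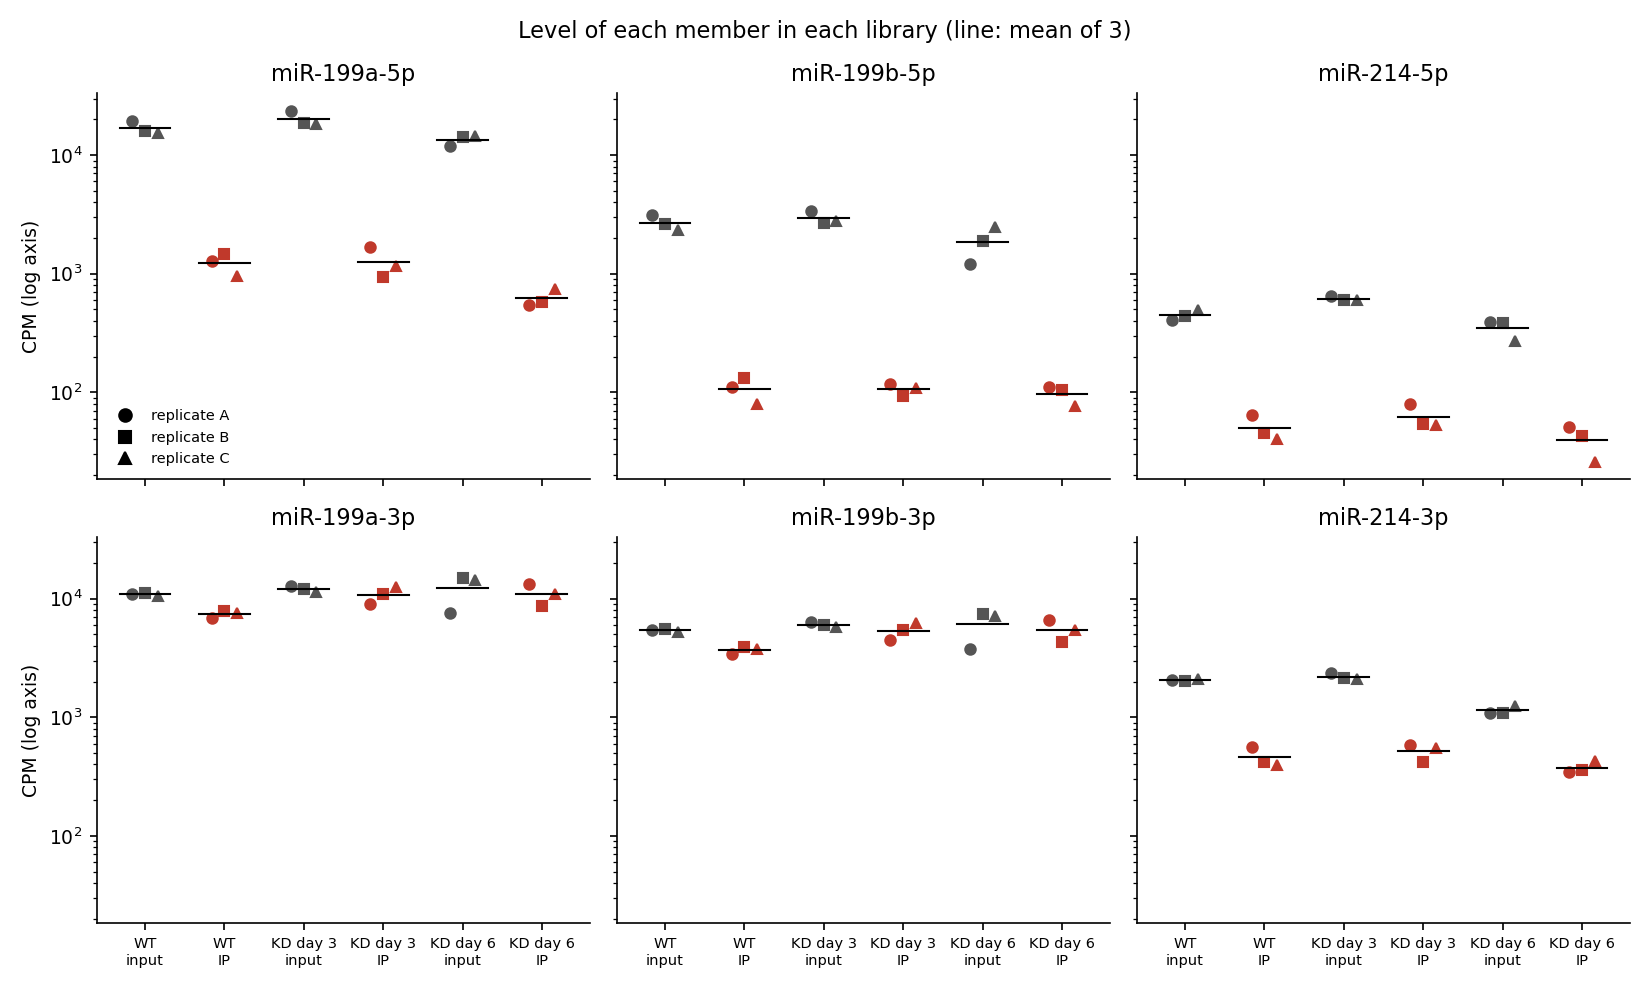
Level of each member in CPM (log axis) in the 18 libraries, with input libraries in grey, IP libraries in red, replicates A, B and C as circles, squares and triangles and the group mean of 3 as a line. The 5p arms and miR-214-3p lie lower in every IP library than in every input of the same condition, whereas the miR-199a-3p and miR-199b-3p panels overlap in KD3 and KD6.

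The central comparison was IP against input, which asks whether a miRNA is more or less frequent among RNAs retained by the Ψ antibody than in the starting small RNA. In WT, all members were lower in IP than in input, and by very different amounts: both 5p arms of miR-199 fell most, miR-214-5p and miR-214-3p less, and the shared miR-199-3p sequence least. All 6 names passed an adjusted p of 0.05 in the lower direction by edgeR's quasi-likelihood test, as did 37.5% of the 550 miRNAs tested, and 68.9% passed in either direction. The median log2 ratio of the 6 names, which count the shared miR-199-3p sequence under both its names, was -2.66 beside -0.04 over all miRNAs tested. A ratio is relative to the median miRNA of the libraries, so a negative value does not give an absolute loss.

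miR-199a-5p, the arm known to target Hif1a, had 19352, 16076 and 15368 CPM in WT input replicates A, B and C and 1290, 1461 and 961 CPM in the IP replicates. Every input thus lay above every IP library by a wide margin. The log2 ratio was -3.77 ± 0.23 (SE), which is 13.7-fold lower (edgeR quasi-likelihood test, adjusted p = 8.04e-12). miR-199b-5p, the corresponding arm of the Dnm1 hairpin, had 3145, 2624.5 and 2321 CPM in input and 110.2, 131 and 79.9 CPM in IP. Its log2 ratio of -4.66 ± 0.27, or 25.2-fold lower, was the lowest of the set (adjusted p = 3.51e-12). Only 6.55% of the 550 miRNAs had a lower ratio.

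The opposite arm stood apart. miR-199-3p had 16344, 16839 and 15729 CPM in WT input and 10252, 11816 and 11291 CPM in WT IP. The IP libraries again lay below all inputs, but the gap was small. The log2 ratio was -0.55 ± 0.21 for the miR-199a-3p name and -0.56 ± 0.21 for the miR-199b-3p name, 1.46-fold and 1.47-fold lower, with adjusted p of 0.0251 and 0.0247 by edgeR's quasi-likelihood test, and these are the same reads divided. This call was lost with upper-quartile scaling (log2 ratio -0.15, adjusted p = 0.531 for miR-199a-3p) and without WT input A, WT input B, WT IP A or WT IP C, at adjusted p of 0.0505, 0.0616, 0.0822 and 0.0509 for that name, while the log2 ratio stayed below 0. Relative to the median miRNA the miR-199a-3p ratio lay between -0.55 and -0.39 under all 18 alternatives.

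miR-214-3p, the arm with 1 uracil and a repressor of Ezh2, had 2062, 2017.5 and 2105 CPM in WT input and 557, 421 and 398 CPM in WT IP. Its log2 ratio was -2.17 ± 0.18, 4.50-fold lower (adjusted p = 9.43e-10). miR-214-5p had 407, 436 and 494 CPM in input and 64.5, 45.0 and 40.6 CPM in IP. Its log2 ratio was -3.16 ± 0.26, 8.95-fold lower (adjusted p = 7.60e-10). For both arms of Mir214 the inputs and IP libraries were therefore clearly separated. The groups did not overlap, in the lower direction, for the 6 members and for 40.4% of all miRNAs.

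The same 4 names were called lower in both knockdown conditions, miR-199a-5p, miR-199b-5p, miR-214-3p and miR-214-5p, beside 36.2% of all miRNAs called lower in KD3 and 35.5% in KD6. In KD3, miR-199a-5p had 23530.2, 18747 and 18191 CPM in input and 1670, 944 and 1165 CPM in IP, a log2 ratio of -4.00 ± 0.23. In KD6 it had 11826, 14174 and 14510.5 CPM in input and 545, 577 and 745 CPM in IP, a log2 ratio of -4.44 ± 0.24. Every IP library of both conditions lay far below its inputs, as in WT. The other log2 ratios in KD3 and KD6 were -4.80 ± 0.27 and -4.28 ± 0.27 for miR-199b-5p, -2.08 ± 0.18 and -1.61 ± 0.18 for miR-214-3p, and -3.31 ± 0.26 and -3.14 ± 0.26 for miR-214-5p. Each had its groups apart, as did 40% of all miRNAs, in the lower direction, in KD3 and 25.5% in KD6. Without KD6 input A, the library of lowest depth, all 4 names were still called lower in KD6. Their ratios were -4.97 for miR-199a-5p, -4.95 for miR-199b-5p, -2.08 for miR-214-3p and -3.52 for miR-214-5p. The median over all miRNAs was then -0.45.

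miR-199-3p did not pass in either knockdown. It had 19012.5, 18075.5 and 17209 CPM in KD3 input and 13562.5, 16268 and 18769 CPM in KD3 IP, and the groups overlapped. In KD6 it had 11301, 22585 and 21640 CPM in input and 19813, 12936 and 16300 CPM in IP, where the overlap rested on input A, the library of 241109 reads: it lay below all IP libraries, and inputs B and C lay above them. The log2 ratio of the miR-199a-3p name was -0.16 (95% interval -0.60 to 0.28) in KD3 and -0.18 (-0.62 to 0.26) in KD6. With upper-quartile scaling these ratios were 0.30 and 0.31, and with total mapped reads as library size -0.75 and -1.32, both past the threshold. With the sum of miRNA reads as library size the KD6 ratio was -0.99 and passed as well (adjusted p = 0.00354), -0.18 relative to the median miRNA. Without KD6 input A the KD6 ratio was -0.89 and passed (adjusted p = 7.56e-05), -0.44 relative to the median miRNA.

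**Figure D2:**
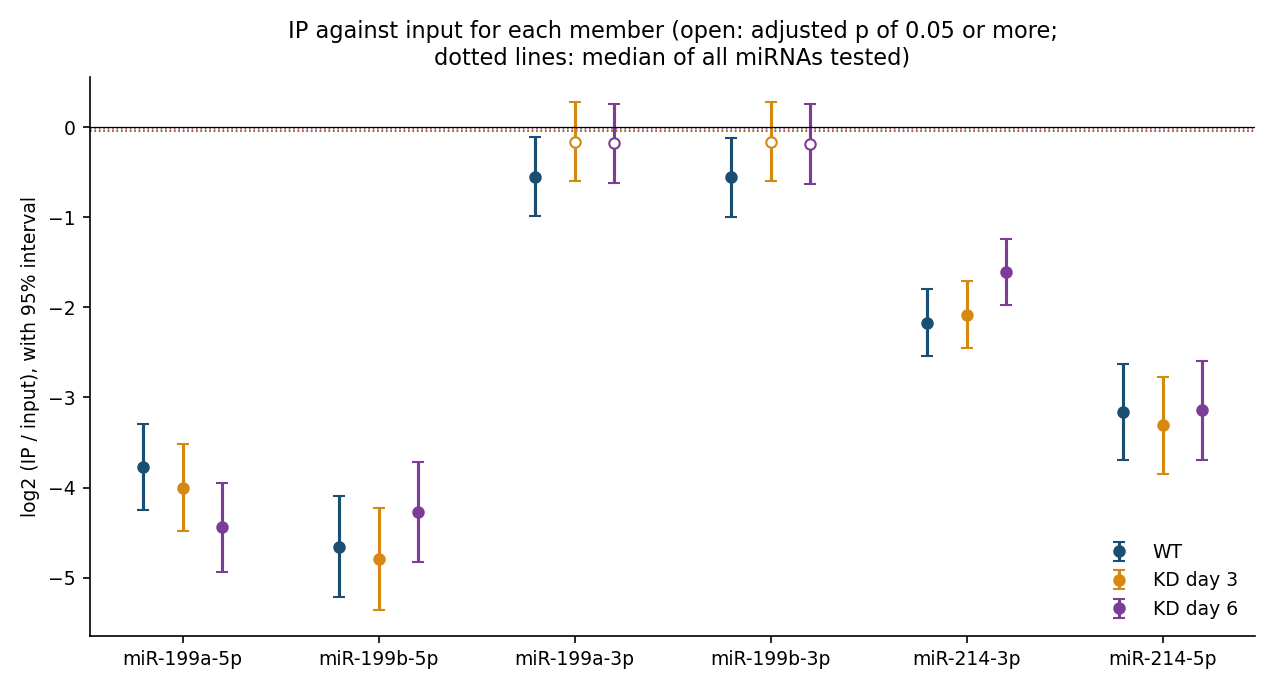
Log2 ratio of IP to input for each member in WT, KD3 and KD6, with 95% intervals from the fit over 18 libraries, filled where the adjusted p was under 0.05. The miR-199 3p names sit between -0.56 and -0.16, near the dotted medians of all 550 miRNAs, and the other members between -4.80 and -1.61.

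Because the members differ so much from each other, they were also compared within each library, where no scaling between libraries enters. These ratios use the same reads as the IP comparison above, so their p-values are not independent support for it. miR-199a-5p was set against miR-199-3p, which also holds the reads of the miR-199b 3p arm, and the ratio was far lower in IP than in input. The number of miR-199a-5p reads per read of miR-199-3p was 1.18, 0.955 and 0.977 in WT input A, B and C and 0.126, 0.124 and 0.0852 in WT IP. In KD3 it was 1.24, 1.04 and 1.06 in input and 0.123, 0.0580 and 0.0621 in IP. In KD6 it was 1.05, 0.628 and 0.671 in input and 0.0275, 0.0446 and 0.0457 in IP. The ratio was lower in IP in all 27 pairings of IP with input libraries of the same condition. On the log2 scale the mean difference over conditions was -3.80, a 14.0-fold lower ratio in IP (two-sided exact permutation test within condition, p = 0.00025, the smallest that 8000 relabellings allow, and 0.000333 adjusted over 4 ratios). The division of 3p reads between the miR-199a and miR-199b names does not enter this ratio, since their counts were summed.

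The arms of Mir214 shifted in the same direction, and less. miR-214-5p gave 0.198, 0.216 and 0.235 reads per read of miR-214-3p in WT input and 0.116, 0.107 and 0.102 in WT IP. Over the 3 conditions the log2 difference was -1.26, 2.40-fold lower, in 27 of 27 pairs (exact permutation p = 0.00025, adjusted p = 0.000333). It was -0.99 in WT, -1.23 in KD3 and -1.56 in KD6. Within a single condition 3 libraries against 3 cannot give a p under 0.1, and each of these reached 0.1.

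The clustered hairpins were compared through miR-214-3p and miR-199a-5p. miR-214-3p gave 0.107, 0.126 and 0.137 reads per read of miR-199a-5p in WT input and 0.432, 0.288 and 0.414 in WT IP. The log2 difference over conditions was 2.13, 4.37-fold higher in IP, in 27 of 27 pairs (exact permutation p = 0.00025, adjusted p = 0.000333). The 2 paralogous 5p arms differed less: miR-199b-5p gave 0.163, 0.163 and 0.151 reads per read of miR-199a-5p in WT input and 0.0856, 0.0897 and 0.0833 in WT IP. The log2 difference was -0.88 in WT and -0.76 in KD3 but 0.23 in KD6, where the libraries overlapped, and -0.47 over conditions (20 of 27 pairs, exact permutation p = 0.026, adjusted p = 0.026). That call was lost without KD6 input C (adjusted p = 0.0728), without KD6 IP C (adjusted p = 0.0885), and when same-letter libraries were paired (adjusted p = 0.0820).

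**Figure D3:**
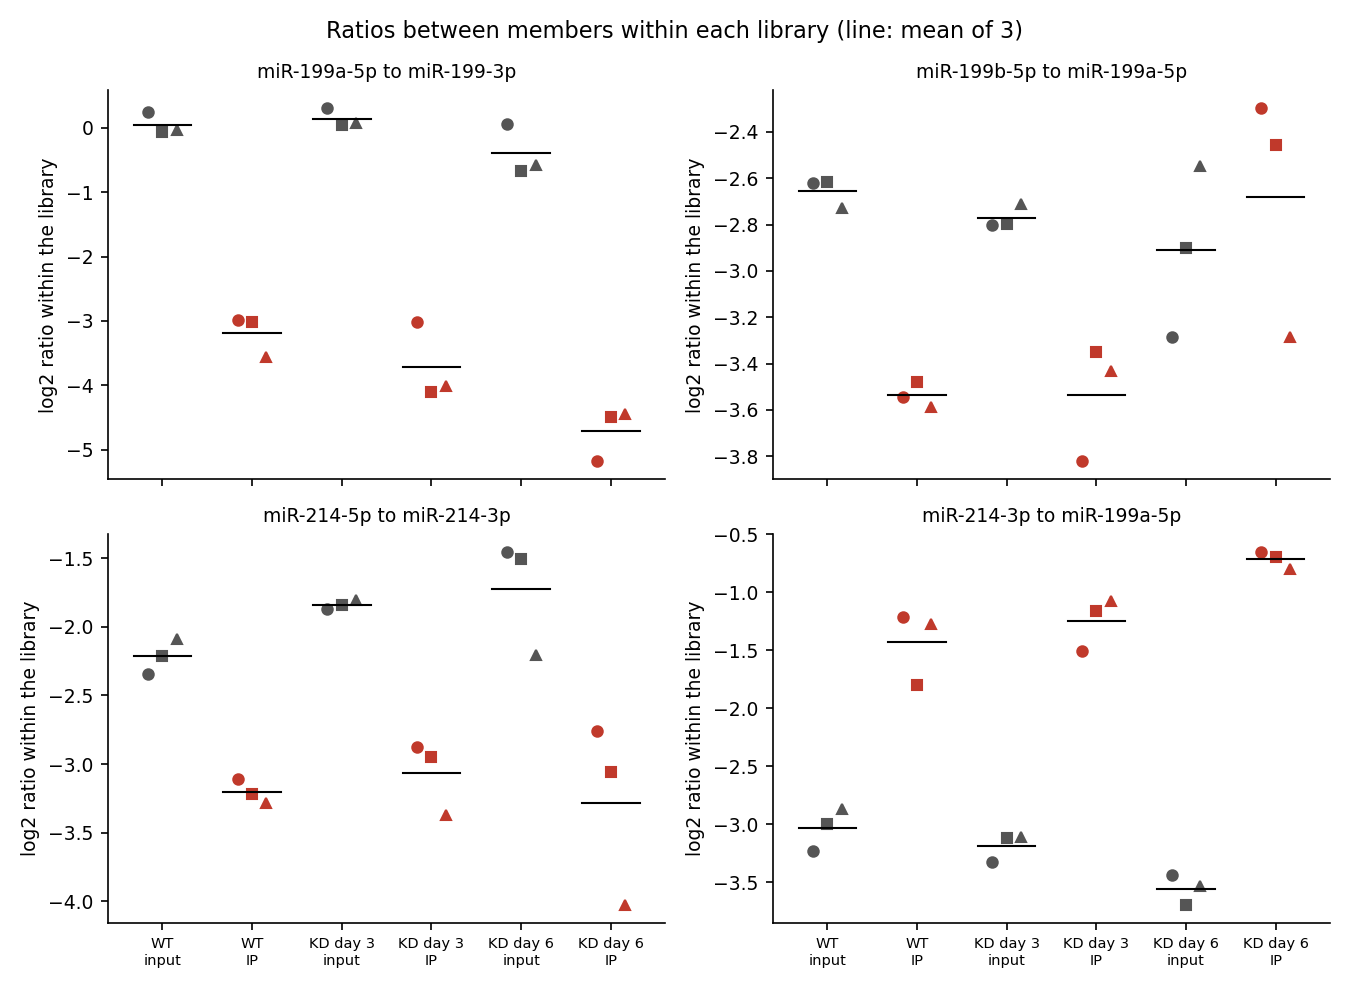
Log2 of 4 ratios between members within each of the 18 libraries, with input libraries in grey, IP libraries in red, replicates A, B and C as circles, squares and triangles, and the mean of 3 as a line. The ratio of miR-199a-5p to miR-199-3p lies between -0.67 and 0.31 in the inputs and between -5.18 and -2.99 in the IP libraries, and miR-214-3p to miR-199a-5p is highest in the 3 KD6 IP libraries.

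The next question was whether the IP ratio of a member changed after knockdown of Pus1. No member passed in KD3 against WT or in KD6 against WT, comparisons that share the WT libraries, nor did any in KD6 against KD3. Over all 550 miRNAs 0, 0 and 1 passed by edgeR's quasi-likelihood test, with 16, 119 and 112 at an unadjusted p under 0.05, and DESeq2 called 0, 23 and 13, so the percentage called by edgeR was 0, 0 and 0.182. At an unadjusted p under 0.05, 2 members stood in KD6 against WT. The log2 ratio of miR-199a-5p changed by -0.67 (95% interval -1.27 to -0.06, adjusted p = 0.211), and that of miR-214-3p changed by 0.56 (0.06 to 1.07, adjusted p = 0.208). The median change over all miRNAs in this comparison was 0.25. The changes of the other names in KD6 were 0.37 for miR-199a-3p (-0.25 to 0.99), 0.38 for miR-199b-5p (-0.31 to 1.07) and 0.02 for miR-214-5p (-0.70 to 0.74). In KD3 against WT they ran from -0.23 for miR-199a-5p to 0.39 for miR-199b-3p. Without KD6 input A, the library of lowest depth, the KD6 change was -0.93 for miR-199a-5p (edgeR, adjusted p = 0.0745). It was 0.36 for miR-214-3p (adjusted p = 0.410) and -0.02 for miR-199b-5p. The median over all miRNAs was then 0.06, and 14 miRNAs were called. With total mapped reads as library size miR-199a-5p passed in KD6 against WT (log2 change -1.41, adjusted p = 0.0363). That scaling called 51 of the 550 miRNAs, 0 of them in the higher direction, moved the median of all miRNAs to -0.56 and gave miR-214-3p a change of -0.18. The share of mapped reads outside miRNA rows was higher in every knockdown IP library than in every WT IP library, and its part in these comparisons was not tested.

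Set against each other within a library, miR-214-3p and miR-199a-5p differed more between IP and input in KD6 than in WT. In KD6, miR-214-3p gave 0.0925, 0.0771 and 0.0866 reads per read of miR-199a-5p in input A, B and C, all below the WT inputs, and 0.638, 0.619 and 0.574 in IP, all above the WT IP libraries. The shift between IP and input was 1.61 on the log2 scale in WT, 1.94 in KD3 and 2.84 in KD6. It was 1.23 larger in KD6 than in WT, a 2.35-fold wider gap (two-sided exact permutation of the condition within IP and within input, p = 0.005, the smallest of 400 relabellings, adjusted p = 0.04 over 8 tests), and 0.33 larger in KD3 than in WT (exact permutation p = 0.205, adjusted p = 0.273). This test of the 4 ratios in 2 comparisons was added after the values were seen. It relabels condition in input and in IP libraries alike, so its p does not separate a change in the shift from a change in either set. The mean log2 ratio was -3.03 in WT input and -3.55 in KD6 input, and -1.43 in WT IP and -0.71 in KD6 IP. Without KD6 input B the adjusted p was 0.08 at a difference of 1.16, and without KD6 input A it was 0.04 at 1.29. None of the other 7 tests passed: the closest was miR-199b-5p to miR-199a-5p in KD6 against WT, with a difference of 1.11 (exact permutation p = 0.02, adjusted p = 0.08). Without KD6 input C that ratio passed, with a difference of 1.30 (exact permutation, adjusted p = 0.02).

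Input libraries were compared to see whether the abundance of the members changed with knockdown. In KD6, miR-214-3p was lower than in WT and in KD3, and no other member passed in any of the 3 comparisons. miR-214-3p had 2062, 2017.5 and 2105 CPM in WT input, 2349, 2154 and 2110 CPM in KD3 input and 1089, 1093 and 1256 CPM in KD6 input, where every library was below every WT and KD3 input, as for 17.1% and 16.4% of all miRNAs. The log2 change was -0.84 ± 0.17 against WT, 1.79-fold lower (adjusted p = 0.00639), and -0.94 ± 0.17 against KD3, 1.92-fold lower (adjusted p = 0.00613). These comparisons share the KD6 libraries, and 3.09% of all miRNAs passed against WT and 4% against KD3, 2% and 2.73% in the lower direction. Without KD6 input A the changes were -0.78 (adjusted p = 0.0162) and -0.91 (adjusted p = 0.00394). The call was lost when libraries were scaled by their miRNA reads (log2 change -0.75, adjusted p = 0.114 against WT, and -0.74, adjusted p = 0.113 against KD3) or by their total mapped reads (-0.81, adjusted p = 0.0671, and -0.73, adjusted p = 0.0963). Beside it, 2 of the 7 tested markers of other cells were higher in KD6 input: the muscle miRNA miR-206-3p, with a log2 change of 0.92 against WT (adjusted p = 0.00639) and 1.07 against KD3 (adjusted p = 0.00611), and the liver miRNA miR-122-5p, with 1.10 against KD3 (adjusted p = 0.0444). The other tested muscle miRNA, miR-1a-3p, at 0 to 1.90 CPM in the inputs, had a log2 change of -2.34 against WT (adjusted p = 0.0728) and -1.34 against KD3 (adjusted p = 0.333). miR-133a-3p had 0 reads in these inputs, and the part of such cells or reads in the result was not tested.

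miR-214-5p, the other arm of the same hairpin, had 407, 436 and 494 CPM in WT input, 643, 602 and 604 CPM in KD3 input and 395, 386 and 272 CPM in KD6 input. The KD3 libraries were the highest of the 3 groups. The log2 change was -0.83 ± 0.24 in KD6 against KD3 (95% interval -1.33 to -0.33, adjusted p = 0.0560). DESeq2 called this change (adjusted p = 0.0107). So did edgeR with TMM factors (0.0354), no filter on low counts (0.0426), a filter at a mean of 10 counts (0.0475) or without KD6 input A (0.0290). Under 11 of 17 alternatives it was not called. With the replicate letter as a block the change was -0.83 with an adjusted p of 0.0309. The labels do not say what the letters share, and libraries of different letters were not compared, so this pairing is not established. Against WT it was 0.47 in KD3 (-0.02 to 0.95) and -0.36 in KD6 (-0.86 to 0.14). Within the library, miR-214-5p gave 0.274, 0.280 and 0.286 reads per read of miR-214-3p in KD3 input, each above the WT inputs.

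The miR-199 names did not pass in any input comparison. For miR-199a-5p the log2 changes were 0.25 in KD3 against WT (95% interval -0.18 to 0.68), -0.33 in KD6 against WT (-0.76 to 0.10) and -0.58 in KD6 against KD3 (-1.01 to -0.15, adjusted p = 0.155). For miR-199b-5p they were 0.13 (-0.35 to 0.61), -0.52 (-1.01 to -0.04, adjusted p = 0.288) and -0.65 (-1.14 to -0.17, adjusted p = 0.155). For miR-199a-3p they were 0.15 (-0.29 to 0.59), 0.19 (-0.25 to 0.62) and 0.03 (-0.40 to 0.47). No miRNA of the 550 passed in KD3 against WT by edgeR's test, where 44 had an unadjusted p under 0.05 and DESeq2 called 8, so the percentage called by edgeR was 0. The KD3 and WT groups did not overlap, in the higher direction, for miR-199a-3p, miR-199b-3p, miR-214-3p and miR-214-5p, and for 15.8% of all miRNAs. Every KD6 input lay below every WT input for miR-199a-5p, miR-214-3p and miR-214-5p, and for 17.1% of all miRNAs. Every KD6 input lay below every KD3 input for the same names and miR-199b-5p, and for 16.4% of all miRNAs.

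**Figure D4:**
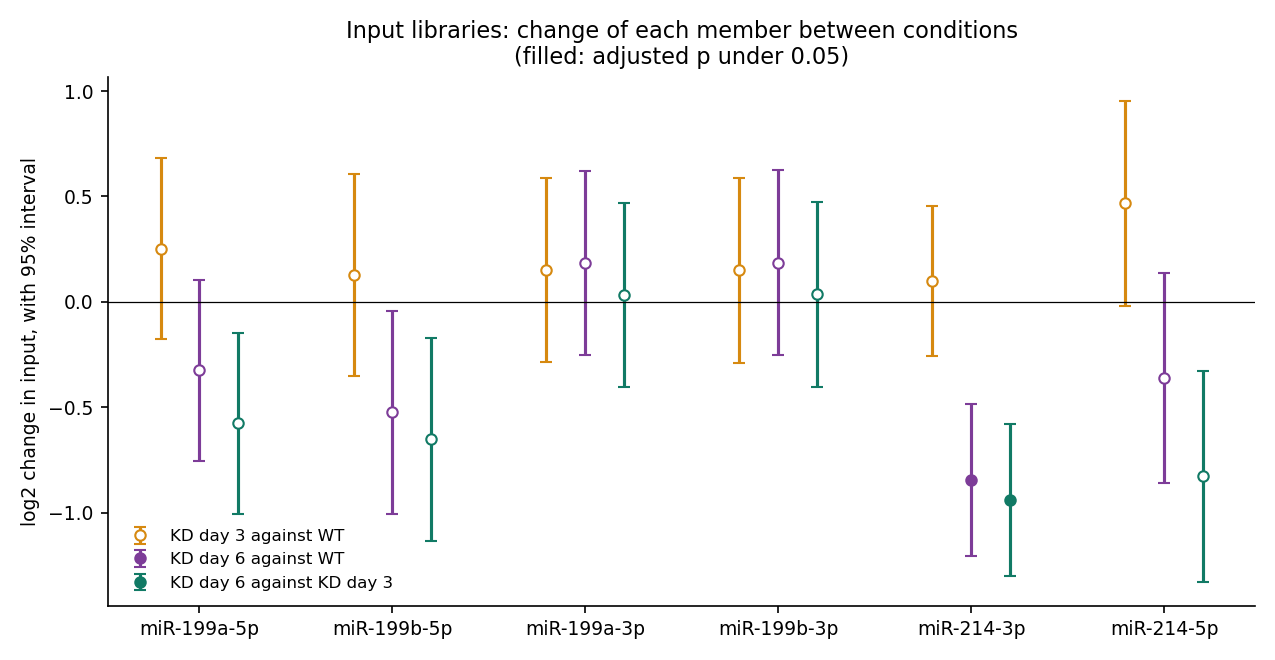
Log2 change of each member between the input libraries of 2 conditions, with 95% intervals, filled where the adjusted p was under 0.05. Only the KD6 changes of miR-214-3p, -0.84 against WT and -0.94 against KD3, are filled.

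The arm difference was then set beside that of every other hairpin. There were 172 hairpins with both arms among the miRNAs tested, and the 5p arm had the lower log2 IP ratio in 83 of them in WT and in 82 in KD3 and in KD6. The 5p minus 3p difference of the miR-199a hairpins was -3.22 in WT, -3.84 in KD3 and -4.26 in KD6, the 18th, 17th and 12th lowest of 172. For Mir199b it was -4.10, -4.64 and -4.09, the 12th, 11th and 16th lowest, with 3p reads shared with miR-199a. For Mir214 it was -0.99, -1.23 and -1.54, the 55th, 52nd and 43rd lowest. The median over the 172 hairpins was 0.08 in WT, and 5% of them lay under -4.29.

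**Figure D5:**
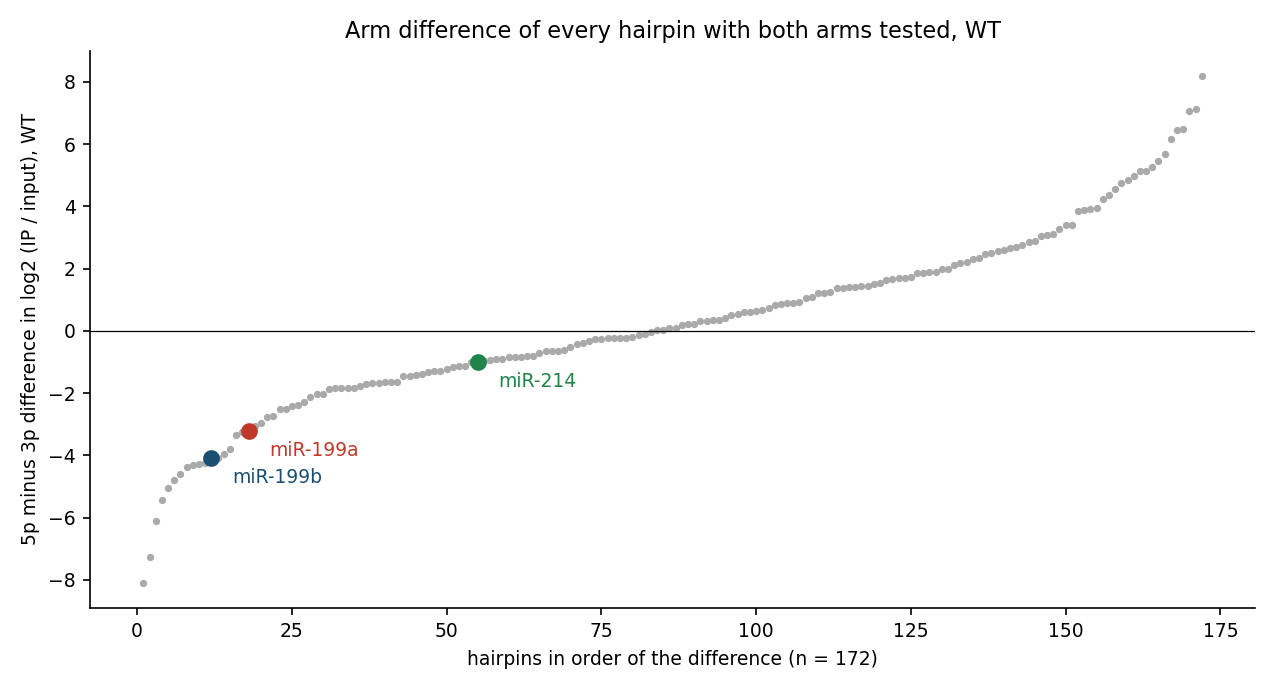
Difference between the 5p and 3p arm in log2 IP to input ratio in WT, for the 172 hairpins with both arms tested in increasing order, with the member hairpins as coloured points. miR-199b at -4.10 and miR-199a at -3.22 lie near the lower end and miR-214 at -0.99 nearer to the middle.

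Base content was described over the 475 tested miRNAs with a sequence. The Pearson r of uracil content with the log2 IP ratio was 0.06 in WT and KD3 and 0.08 in KD6, and that of GC content was 0.20, 0.19 and 0.19, across miRNAs that share libraries. Among members, uracil content and log2 ratio in WT were 31.8% and -0.55 for miR-199-3p and 30.4% and -3.77 for miR-199a-5p. They were 36.4% and -3.16 for miR-214-5p and 4.55% and -2.17 for miR-214-3p. The part of uracil content in these ratios was not tested. By first base, the 201 miRNAs that begin with uracil had a median log2 ratio of 0.52 in WT. The 126 that begin with adenine, as do miR-199-3p and miR-214-3p, had a median of -0.73. The 102 that begin with cytosine, as does miR-199a-5p, had a median of -0.13. miR-214-5p begins with uracil and had a ratio of -3.16.

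The number of distinct read sequences, which grows with depth, was given by the deposited table and not used to choose members. miR-199a-5p was covered by 627 to 663 distinct sequences in WT input and 114 to 151 in WT IP, and miR-199a-3p by 818 to 868 in input and 434 to 547 in IP. The mean number of reads per distinct sequence of miR-199a-5p was 306 to 334 across the WT input libraries and 45.9 to 51.8 across the WT IP libraries. For miR-214-5p, the least abundant member, the estimated reads ranged from 80.0 in KD6 input A to 8940 in KD3 input A, and 92.8 to 335 reads lay behind each IP value.

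Of the 17 other mesenchymal arms, 13 were lower and 1 higher in IP than in input in WT at an adjusted p under 0.05, with a median log2 ratio of -1.73. In KD3, 13 were lower and 3 higher, and in KD6 12 and 2, with medians of -1.57 and -1.53. Over all 550 miRNAs tested, 37.5% were called lower in WT, 36.2% in KD3 and 35.5% in KD6. The lowest ratio in WT was that of miR-22-3p, an arm abundant in many differentiated tissues, at -3.32 (adjusted p = 3.80e-10), and the highest that of miR-222-3p, known to repress the cell cycle inhibitor p27, at 1.07 (adjusted p = 0.000605). No arm of the list passed in any of the 3 input comparisons. Of the tested markers of other cells, miR-122-5p, miR-9-5p, miR-1a-3p and miR-206-3p were higher in IP in WT, and none of the 3 tested epithelial miRNAs passed there. Among all 379 miRNAs called in WT, 45.6% were in the higher direction.

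Across the 18 libraries, the 5p arms of miR-199 and both arms of miR-214 followed each other, with a Pearson r of 0.96 to 0.98 for log2 (CPM + 1), and miR-199-3p had an r of 0.39 to 0.47 with them. These are descriptions over libraries in which IP and input differ. Among 144 other miRNAs of at least 100 CPM, those most like miR-199a-5p were miR-99a-5p (r = 0.99), miR-140-3p (0.99), a cartilage miRNA, and miR-872-5p (0.98). Those most like miR-199b-5p were miR-30e-5p (0.99), miR-101b-3p (0.99) and miR-300-3p (0.99). miR-214-3p was most like miR-299a-3p (0.98), miR-140-3p (0.97) and miR-99a-5p (0.97), and miR-214-5p like miR-99a-5p (0.98), miR-381-3p (0.98) and miR-24-3p (0.98). For miR-199-3p no pattern came as close: the highest r of the miR-199a-3p name was 0.67 with miR-181b-5p, then 0.63 with miR-145a-5p and 0.62 with miR-29a-3p. Their log2 IP ratios in WT were -0.74, -0.50 and -1.70.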

How the data were processed

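Small RNAs under 200 nt from the NIH/3T3 line were sequenced from input and Ψ-IP fractions. The authors trimmed and mapped the reads with SeqImp (version not given in the sources used here) on mm10 with Ensembl 89 and miRBase 21, and deposited estimated counts per mature miRNA and hairpin, in which reads of several loci are divided, beside the estimated counts of distinct read sequences. Of the non-zero deposited estimated counts 47% were not whole, and the row of mapped totals, which names no miRNA, stayed out of library sizes and tests.

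Counts were summed per mature name, rounded and scaled with median-ratio (RLE) factors. The edgeR quasi-likelihood test (edgeR 4.0.16, R 4.3.3) was fitted on 18 libraries with 6 group means after edgeR's expression filter, which kept 550 miRNAs, with Benjamini-Hochberg adjustment and a threshold of 0.05. A standard error was taken as the log2 value divided by the root of F. CPM values use the scaled library sizes. The study tested with DESeq2, run here (1.42.0) as an alternative. Within-library log2 ratios had 1 added to each count and were tested by exact permutation (scipy 1.17.1). Other scalings, filters, precursor sums, blocks and left-out libraries were tried.

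The rule that picked the members uses no measured value, but it was set with earlier results of these data known. So were the mesenchymal list and the markers of blood, epithelium, endothelium, liver, nervous system and muscle. The text names every member, the extremes of the mesenchymal list, other miRNAs with a member's seed and, for members, the 3 miRNAs of at least 100 CPM with the highest Pearson r. The change of ratios between conditions was tested after the values were seen. The labels give replicate letters without saying what they share. Over 188 miRNAs, the deviations of same-letter libraries had an r over 0.1 for every letter only between KD3 and WT inputs (0.20 to 0.61) and between KD6 and KD3 inputs (0.24 to 0.34).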

Additional observations from a re-analysis of the deposited data

Results flagged for a closer look

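A test of the difference between conditions passed for 1 ratio: the IP to input shift of miR-214-3p relative to miR-199a-5p was 1.23 larger on the log2 scale in KD6 than in WT (two-sided exact permutation p = 0.005, adjusted p = 0.04 over 8 tests added after the values were seen). The shift was 1.61 in WT and 2.84 in KD6, with n = 3 IP and 3 input libraries each, and the ratio was lower in every KD6 input than in every WT input and higher in every KD6 IP than in every WT IP library. The test relabels condition in inputs and in IP libraries alike, so its p does not isolate the shift. The difference lay between 1.05 and 1.34 when libraries were left out in turn, and without KD6 input replicate B the adjusted p was 0.08 at 1.16.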

How the results depend on the processing

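The 5p arms of miR-199 and both arms of miR-214 were lower in IP in all 3 conditions under each of the 18 alternatives run for a condition. The median of all miRNAs in IP against input was -0.04, -0.03 and -0.00 in WT, KD3 and KD6 with median-ratio factors, -0.35, -0.26 and -0.35 with TMM, 0.37, 0.43 and 0.50 with upper-quartile factors, and -0.37, -0.61 and -1.14 with total mapped reads. Of the calls, 45.6%, 48.7% and 50.3% were in the higher direction, against 56.7%, 58.6% and 59.1% with upper-quartile factors, 38.2%, 33.5% and 27.7% with total mapped reads, and, in KD6, 34.1% with the sum of miRNA reads. Causes were not tested.

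Upper-quartile factors turned miR-199a-3p and miR-199b-3p to 0.30 each in KD3, and to 0.31 each in KD6. In the change of the IP ratio in KD6 against WT, scaling by miRNA reads gave -0.29 for miR-199a-3p, -0.30 for miR-199b-5p, -0.29 for miR-199b-3p, -0.024 for miR-214-3p and -0.60 for miR-214-5p, and total mapped reads gave -0.44, -0.45, -0.44, -0.18 and -0.74. Total mapped reads called 1 member there, miR-199a-5p, and gave miR-214-3p -0.18 in KD3 against WT. For inputs of KD3 against WT, miR-199b-5p and miR-214-3p were -0.0088 and -0.045 with TMM, miR-214-3p -0.014 with miRNA reads, and miR-199a-3p, miR-199b-5p, miR-199b-3p and miR-214-3p -0.023, -0.045, -0.023 and -0.077 with total mapped reads.

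Leaving out libraries in turn, the change of the IP ratio ranged in KD3 against WT from -0.32 to 0.023 for miR-199b-5p, -0.016 to 0.25 for miR-214-3p and -0.33 to 0.077 for miR-214-5p. In KD6 against WT it ranged from -0.058 to 0.54 for miR-199a-3p, -0.060 to 0.54 for miR-199b-3p, -0.019 to 0.64 for miR-199b-5p and -0.19 to 0.25 for miR-214-5p. In inputs of KD6 against KD3 it was -0.14 to 0.29 for miR-199a-3p and -0.13 to 0.28 for miR-199b-3p.

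In inputs, 1 member was called in KD3 against WT with the fit of only the libraries compared, miR-214-5p at 0.48. In KD6 against WT, 0 were called with miRNA reads or total mapped reads. In KD6 against KD3, 0 were called with these scalings, and 2 with TMM, DESeq2, no filter on low counts or a filter at a mean of 10 counts, the second being miR-214-5p, and 1 to 2 with libraries left out (2 without KD6 input replicate A). Over all miRNAs the calls ranged from 0 to 75 in KD3 against WT, 6 to 32 in KD6 against WT and 5 to 51 in KD6 against KD3 inputs, and from 0 to 1, 0 to 59 and 0 to 66 for the changes of the IP ratio in KD3 against WT, KD6 against WT and KD6 against KD3.

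With the replicate letter as a block, 2 members were called in inputs of KD6 against KD3, and miR-214-5p changed by -0.0019 in the IP ratio of KD6 against WT with IP and input pairs as a block. The pair block took miR-199a-3p in WT to an adjusted p of 0.0508 at -0.55, and the block changed no other count of members called. The ratio of miR-199b-5p to miR-199a-5p was -0.47 with same-letter pairs (replicate block, exact sign flips) and -0.53 to -0.37 with libraries left out. KD6 input replicate A held 80.0 to 2396 reads per member, which limits its precision.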
